A study of Mus musculus with 12 samples.

Results

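The genes described here encode collagens and other proteins of the extracellular matrix, the meshwork of fibres and sheets that surrounds the cells of adipose tissue. A list of 41 such genes was searched on an Affymetrix array of 12422 probe sets, and 39 of them were named by at least 1 probe set that carries a single gene name, out of 8251 genes named in that way in all. Where a gene had several such probe sets, the one with the highest mean over the 12 arrays stood for it. Thbs1 was named only on a probe set that also names other genes, and Fbn1 was named by none, so both are not analysed here. Of the 39 genes, 35 were bright enough to be tested, and Nid1, Nid2, Tnc and Vcan were below the intensity filter.

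The arrays measured RNA in perigonadal fat from ad libitum fed mice that the labels give as female and 6 months old, with 3 mice in each of 4 groups and 1 array per mouse. The overexpressors were adipose-GLUT4-Tg mice, which carry a Glut4 transgene driven by the aP2 promoter, and their controls were FVB littermates. The adipose-Glut4-/- mice (the knockouts) were set against aP2-Cre transgenic mice that carry the recombinase, and the labels give this line a mixed C57B6, FVB and SV129 strain. The aP2 gene, also named Fabp4, is a fatty acid binding protein of adipocytes that macrophages also make, so its promoter is not specific to adipocytes. The comparison asks how matrix gene expression in fat stands when the insulin-responsive glucose transporter Glut4 is raised or removed in adipose cells. The p-values below cover the spread between these mice.

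Fibrillar collagens I, III and V are secreted as procollagens, trimmed, and assembled into crosslinked fibres, while collagen IV, laminins and nidogens form the basement membrane, a thin sheet that wraps each adipocyte and blood vessel. Matricellular proteins such as thrombospondins and periostin sit in the matrix and modify how cells respond to it rather than carry load. In fat, fibroblasts and adipocyte progenitors make much of the fibrillar matrix, and adipocytes, endothelial cells and pericytes contribute to basement membranes. In RNA from whole tissue, fewer cells of a type and less RNA per cell cannot be told apart.

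The deposited values are linear intensities. The lowest value that occurs is 21.9 in the overexpressor line and 22.27 in the knockout line, so the lines appear to have been processed separately and no level is compared between them. Array medians ran from 186 to 219. The adipocyte hormone adiponectin (Adipoq) read 5196 to 6986 over the 12 arrays. Of 8 markers of ovary, uterus or epithelium, Epcam was at the smallest value on 10 of 12 arrays and Pgr on 3. Others did read a signal, with Cdh1 at 312 to 397, Krt5 at 26.7 to 420 and Ovgp1 at 122 to 834. Epcam alone therefore does not show that such tissue was absent. The Slc2a4 probe set, which reads the Glut4 gene, read 625, 1110 and 1042 on the arrays labelled overexpressor and 639, 583 and 1212 on their controls. These groups overlapped, and the sources used here do not say whether the transgene's transcript contains the sequence of that probe set, so it gave no check of that label. The knockouts read 378, 365 and 363, each below the 416, 514 and 614 of their controls, and whether the probe set lies within the deleted part of the gene is likewise not given.

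The sequence upstream of the annotated start is shown for 4 genes on which the results below turn, namely a collagen I and a collagen III chain, the fibril-assembly protein dermatopontin (Dpt), and thrombospondin-2 (Thbs2), whose intensity lay in the opposite direction. Each is 250 bases long, ends at the base before the start and comes from RefSeq on GRCm38.p6. The positions are chr6:4505368-4505617 on the plus strand for Col1a2, chr1:45311288-45311537 on the plus strand for Col3a1, chr1:164796413-164796662 on the plus strand for Dpt and chr17:14694263-14694512 on the minus strand for Thbs2. Capitals mark matches on either strand to TATAAA, or to CCAAT, or to GGGCGG, which are the core promoter box, the CCAAT box and the GC box.
Col1a2: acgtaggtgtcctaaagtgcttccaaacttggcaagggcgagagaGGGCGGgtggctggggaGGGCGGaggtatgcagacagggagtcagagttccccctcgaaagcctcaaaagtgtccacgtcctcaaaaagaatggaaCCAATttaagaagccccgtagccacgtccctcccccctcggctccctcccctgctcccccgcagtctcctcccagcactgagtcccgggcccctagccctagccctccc
Col3a1: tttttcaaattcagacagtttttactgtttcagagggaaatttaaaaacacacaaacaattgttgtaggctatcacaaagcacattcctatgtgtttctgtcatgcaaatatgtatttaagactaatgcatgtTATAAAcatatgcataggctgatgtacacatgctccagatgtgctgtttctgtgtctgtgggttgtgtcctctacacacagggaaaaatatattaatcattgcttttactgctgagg
Dpt: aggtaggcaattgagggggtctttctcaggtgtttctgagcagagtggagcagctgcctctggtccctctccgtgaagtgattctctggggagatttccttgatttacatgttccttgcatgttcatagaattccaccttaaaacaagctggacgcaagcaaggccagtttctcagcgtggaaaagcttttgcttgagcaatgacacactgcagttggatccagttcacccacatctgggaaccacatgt
Thbs2: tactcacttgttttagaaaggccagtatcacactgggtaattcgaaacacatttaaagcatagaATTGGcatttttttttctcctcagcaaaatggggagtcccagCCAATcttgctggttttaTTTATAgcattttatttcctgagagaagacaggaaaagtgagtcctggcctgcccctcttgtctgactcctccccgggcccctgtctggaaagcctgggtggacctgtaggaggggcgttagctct
Col1a2 had 1 CCAAT, 109 to 105 bases before the start, and GGGCGG at 205 to 200 and at 188 to 183 bases. Col3a1 had 1 TATAAA, 117 to 112 bases before the start. Thbs2 had CCAAT on the plus strand of the gene at 144 to 140 bases and on the opposite strand at 186 to 182 bases, with TATAAA on the opposite strand at 126 to 121 bases. None of these matches overlapped another, and the Dpt window held none of the motifs. Of all 32851 promoters in the same table, 12.4% held TATAAA, 33.8% CCAAT and 32.7% GGGCGG. Promoter entries were found for 26 of the 39 genes, of which 5 held TATAAA, 8 held CCAAT and 13 held GGGCGG. A match in such a window is a description and not a shown binding site.

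Most matrix genes had a lower mean in the overexpressors than in their littermate controls, but the arrays of both groups overlapped and no single gene passed the test. Of the 35 tested genes, 32 had a lower mean in the overexpressors, against 70.3% of all 7454 tested probe sets, and 3 were higher against 29.6%, namely Thbs2, fibromodulin (Fmod) and fibulin-1 (Fbln1). The median difference was -0.41 on the log2 scale, with a range from -0.77 to 0.68, while the median over all tested probe sets was -0.07. With limma and Benjamini-Hochberg adjustment, 0 of 35 passed an adjusted p of 0.05, where 0.0805% of all probe sets did, and the members' adjusted p ran from 0.510 to 0.993. At an unadjusted limma p under 0.05, 12 of 35 lay lower (34.3%) against 3.53% of all tested probe sets, and 1 of 35 higher against 1.23%, which makes 13 of 35 (37.1%) against 4.76% in either direction. In 6 of 35 genes every overexpressor read below every control (17.1%), against 6.48% of all tested probe sets, and in none did every overexpressor read above every control, against 2.29%. The genes share the same 6 arrays, so these counts are not independent observations. Averaged over the 35 genes, the overexpressor arrays stood at -0.47, -0.38 and -0.21 from the control mean. The controls stood at 0.30, 0.04 and -0.34, so control 3 lay within the overexpressor range. With array medians subtracted, 31 of 35 genes read lower against 53.8% of all tested probe sets, and with quantile normalization within the line 31 of 35 against 48.3%.

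One alternative fit made calls among the matrix genes. With arrays weighted by limma's estimate of their quality, whose iteration did not converge, 8 of 35 passed an adjusted p of 0.05, where 5.62% of all tested probe sets did. They were Dpt, Lamc1, Pdgfra, Col1a2, Postn, Lama2, Mfap2 and Col5a2, with limma adjusted p from 0.00324 to 0.0401, and all 8 read lower. That fit gave overexpressor control 2 a weight of 4.64 and controls 1 and 3 weights of 0.55 and 0.53.

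**Figure D1:**
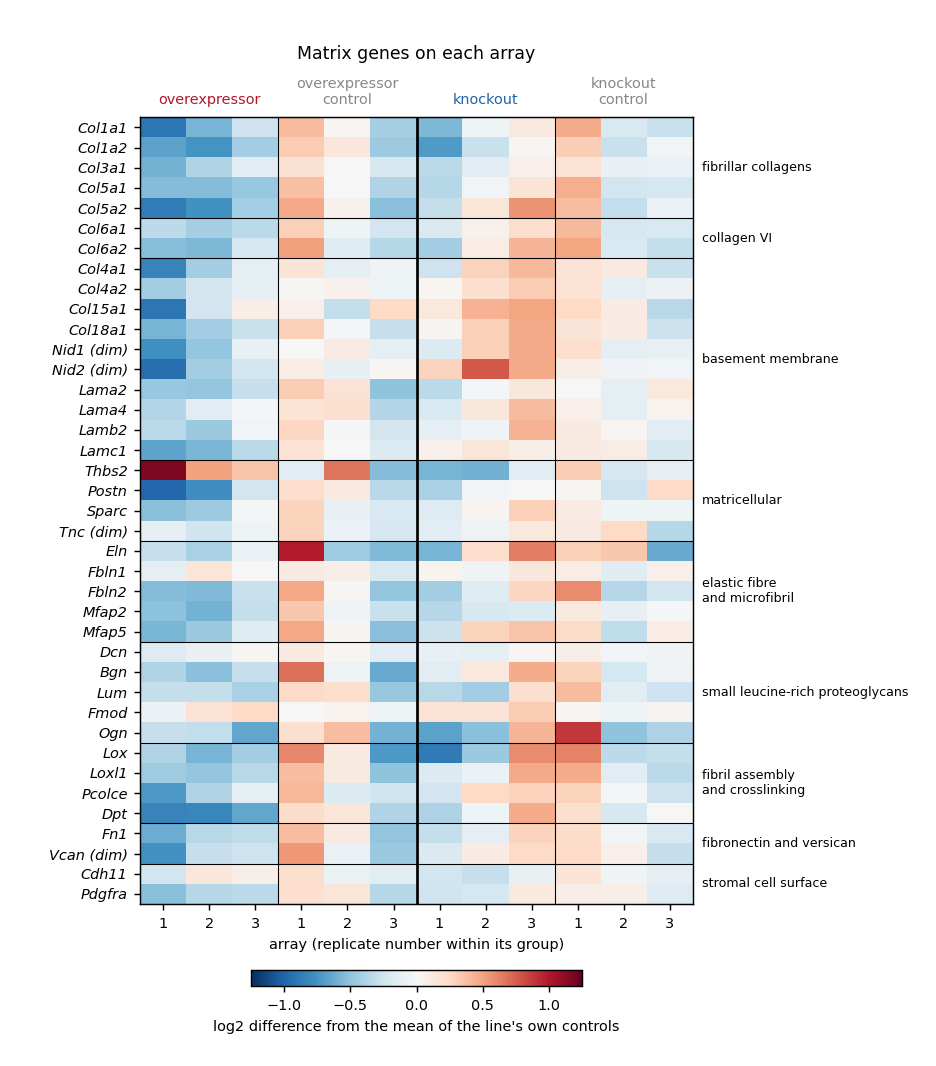
Log2 difference of each of the 39 matrix genes on each of the 12 arrays from the mean of that line's own 3 controls, with genes in rows grouped by class and arrays in columns grouped as overexpressor, its control, knockout and its control (blue lower, red higher; genes marked dim were not tested). The overexpressor columns are mostly blue except for Thbs2, overexpressor control 1 is mostly red, and the knockout columns run from mostly blue on array 1 to mostly red on array 3.

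The fibrillar collagens form the load-bearing fibres of the tissue. All 5 chains read lower in the overexpressors, with a median of -0.58 and a range from -0.69 to -0.37. Each had an unadjusted limma p under 0.05 on the probe set that stood for it. The shares over all tested probe sets were 70.3% below 0 and 3.53% lower with that limma p. Other tested probe sets of Col3a1 and Col5a1 had such a p too, while those of Col1a1 (-0.41) and Col1a2 (-0.05) did not. Col1a2, a chain of type I collagen, read 2009, 1897 and 2370 in the overexpressors and 4024, 3549 and 2333 in the controls. The lowest control lay just below the highest overexpressor, and the means were 2092 ± 247 and 3302 ± 872 (SD, n = 3 each). Its log2 difference was -0.62 (SE 0.23, 95% interval -1.12 to -0.12, limma adjusted p = 0.901). Col1a1, the other type I chain, read 1875, 2361 and 2951 against 4663, 3602 and 2644, with control 3 again within the overexpressor range and a difference of -0.58 (SE 0.26).

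Collagen V, which nucleates type I fibrils, followed. Col5a1 read 680, 680 and 714 in the overexpressors, a spread of SD 19.8 around 691, and 1318, 1003 and 769 in the controls. The groups did not overlap, and the difference was -0.52 (SE 0.22). Col5a2 read 708, 773 and 980 against 1860, 1382 and 913, with a difference of -0.69 (SE 0.27), and only control 3 fell inside the overexpressor range. Col3a1, the chain of type III collagen, which forms fine reticular fibres, read 3110, 3624 and 4250 against 5373, 4723 and 4102, with a difference of -0.37 (SE 0.15) and the overlap again at control 3. The other Col3a1 probe sets tested read lower as well, and the 3 of them ran from -0.92 to -0.37. The other tested Col1a2 probe set read 580, 606 and 543 against 618, 570 and 606, a difference of -0.05, so the probe sets of Col1a2 did not show the same size.

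Collagen VI forms beaded filaments around adipocytes. Col6a1 read 2486, 2338 and 2466 in the overexpressors, all below the 3838, 3005 and 2644 of the controls, with a difference of -0.36. Col6a2 read 1516, 1488 and 1887 against 3157, 1989 and 1714, so the groups overlapped, with a difference of -0.44. Neither had an unadjusted limma p under 0.05.

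**Figure D2:**
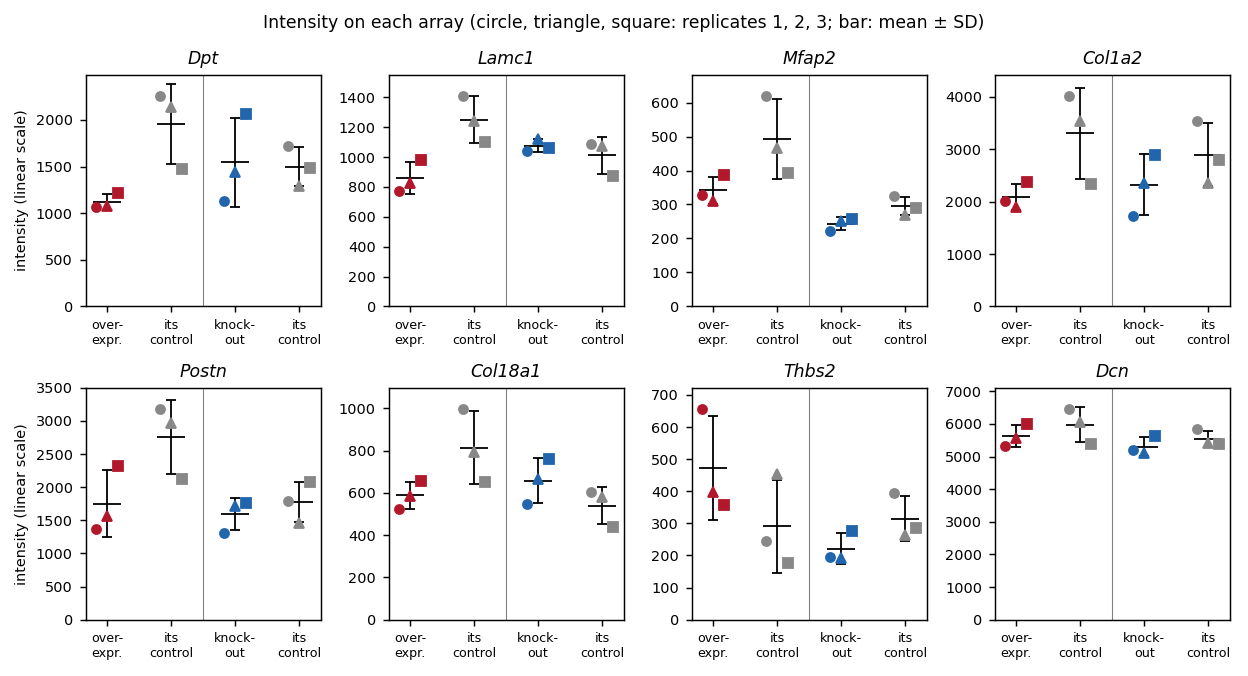
Intensity (linear axis from 0) of 8 matrix genes on each array, with circle, triangle and square for replicates 1, 2 and 3 and bars for the mean ± SD of each group of 3. Dpt, Lamc1 and Mfap2 show overexpressor arrays that lie below all of their controls, Thbs2 shows a wide spread in the overexpressors and in their controls, and Dcn shows groups that lie together.

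Basement membrane genes read lower in the overexpressors by a smaller median, -0.39 over 8 tested genes, all 8 of them below 0 and 3 with an unadjusted limma p under 0.05. The shares over all tested probe sets were 70.3% below 0 and 3.53% lower with that limma p. Lamc1, the gamma chain shared by most laminin trimers, read 774, 828 and 981 in the overexpressors and 1412, 1240 and 1102 in the controls. No overexpressor reached the lowest control, and the difference was -0.52 (SE 0.13, 95% interval -0.81 to -0.23, limma adjusted p = 0.510), the smallest unadjusted p of the set. Its identifier carries the suffix f, which the manufacturer gives to probe sets that can match related sequences. The other Lamc1 probe set was too dim to test. Col4a1 and Col4a2, the paired chains of the collagen IV network, differed by -0.46 and -0.26. Col4a1 read 1622, 2149 and 2712 against 3293, 2694 and 2826. Col4a2 read 1592, 1831 and 1995 against 2183, 2237 and 2059, with no overlap between the groups.

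Col18a1, whose C-terminal fragment is endostatin, read 525, 584 and 654 in the overexpressors against 997, 792 and 653, a difference of -0.43 (SE 0.17). Control 3 met the highest overexpressor. Its 4 tested probe sets ran from -0.66 to -0.28. Of these, 1 read only 55.1 to 197 in this line and passed the filter through the knockout line. Col15a1, a collagen of the outer basement membrane zone, read 853, 1366 and 1721 against 1695, 1301 and 1939, with a difference of -0.35 and wide overlap. The laminin chains Lama2, Lama4 and Lamb2 differed by -0.42, -0.18 and -0.28. The nidogens link the laminin and collagen IV networks and were too dim to test. Nid1 read 63.3, 85 and 123 against 133, 146 and 121, and Nid2 read 50.9, 88.1 and 107 against 143, 121 and 133.

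Matricellular genes did not share a direction. Periostin (Postn), which binds collagen and aids its crosslinking, read 1362, 1571 and 2320 in the overexpressors and 3182, 2972 and 2126 in the controls. Overexpressor 3 read above control 3, and the difference was -0.66 (SE 0.22, 95% interval -1.13 to -0.19, limma adjusted p = 0.797). Thbs2, a secreted thrombospondin that restrains angiogenesis, read 657, 399 and 358 against 244, 453 and 175. Overexpressor 1 was the highest array and control 2 lay above the other overexpressors, so that the difference of 0.68 (SE 0.29, 95% interval 0.05 to 1.30, limma adjusted p = 0.913) rested on overlapping groups. It was 0.41 without control 3, 0.43 without overexpressor 1 and 1.01 without control 2. Sparc, a collagen-binding chaperone of matrix assembly, read 2025, 2119 and 2869 against 3554, 2737 and 2561, a difference of -0.33. Tenascin-C (Tnc) was too dim to test, at 121, 107 and 127 against 171, 126 and 111. The median of the 3 tested matricellular genes was -0.33.

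Elastic fibre and microfibril genes had a median of -0.40 over 5 tested genes, of which 4 read lower. Mfap2, a glycoprotein of microfibrils, read 329, 310 and 386 in the overexpressors against 621, 466 and 392, without overlap, and differed by -0.47 (SE 0.15, limma adjusted p = 0.703). Mfap5, its relative, differed by -0.40 and fibulin-2 (Fbln2) by -0.46, both with overlapping groups. Elastin (Eln) read 1150, 1064 and 1331 against 2861, 1028 and 957. Its difference of -0.26 came with 1 control far above the other 2, which lay below all 3 overexpressors, and without that control it was 0.24. Fbln1 differed by 0.01 and its tested probe sets did not share a sign.

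Among the small leucine-rich proteoglycans, which bind collagen fibrils and set their diameter, 4 of 5 read lower, with a median of -0.33. Decorin (Dcn) read 5321, 5566 and 6003 against 6460, 6058 and 5393, and its difference of -0.08 had a 95% interval of -0.30 to 0.13. Lumican (Lum) read 2143, 2153 and 1994 against 3157, 3098 and 1899, so control 3 was the lowest of the 6 arrays, and the difference was -0.33. Biglycan (Bgn) and osteoglycin (Ogn) differed by -0.40 and -0.41, and Fmod by 0.12. The Bgn difference was -0.05 without control 1 and -0.71 without control 3, and that of Ogn -0.22 without control 2 and -0.71 without control 3.

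All 4 genes of fibril assembly and crosslinking read lower, with a median of -0.45. Dpt, which speeds fibril formation and binds decorin, read 1065, 1076 and 1213 in the overexpressors and 2261, 2136 and 1472 in the controls. The groups did not overlap, with means of 1118 ± 82.9 and 1957 ± 424 (SD, n = 3 each). Its difference of -0.77 (SE 0.21, 95% interval -1.23 to -0.30, limma adjusted p = 0.510) was the most negative of the 35. The crosslinking oxidases Lox and Loxl1 differed by -0.47 and -0.43, and Pcolce, which enhances procollagen trimming, by -0.41, each with overlapping groups. Lox read 498, 428 and 477 against 1021, 717 and 386, and Pcolce 698, 894 and 1079 against 1580, 1042 and 982.

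Fibronectin (Fn1), the provisional matrix on which collagen is laid down, read 2574, 3106 and 3183 in the overexpressors against 5198, 4283 and 2804, a difference of -0.43. Versican (Vcan) was too dim to test, at 98.3, 151 and 154 against 297, 179 and 129. Of the stromal surface genes, Pdgfra, the receptor that marks adipocyte progenitors and fibroblasts, read 898, 1008 and 1029 against 1511, 1455 and 1008, a difference of -0.40 (SE 0.16) with overlap only between control 3 and the overexpressors. The adhesion protein cadherin-11 (Cdh11) read 138, 189 and 178 against 202, 156 and 150, a difference of -0.01.

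**Figure D3:**
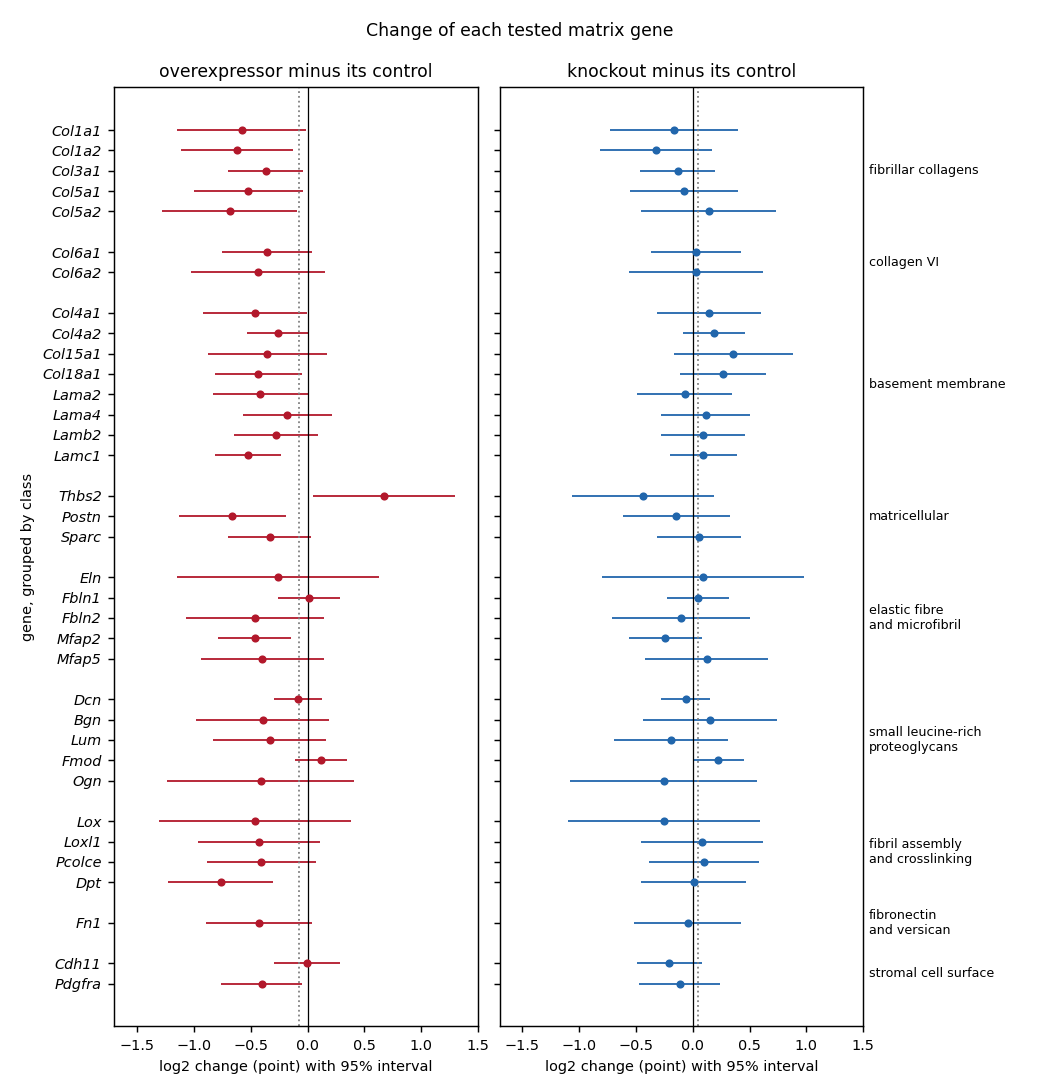
Log2 change (point) with 95% interval (bar) of each of the 35 tested matrix genes, grouped by class, for the overexpressor minus its control (left) and the knockout minus its control (right); the dotted line is the median of all tested probe sets (-0.07 and 0.04). On the left 32 of 35 points lie below 0 and on the right 16 of 35 do.

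In the knockouts the matrix genes lay on both sides of their controls. Of the 35 tested genes, 16 read lower (45.7%, against 37.0% of all tested probe sets) and 19 higher (54.3%, against 63.0%), with a median of 0.03 and a range from -0.44 to 0.36, where the median over all probe sets was 0.04. None passed limma's adjusted p of 0.05 (0.121% of all probe sets did) and all 35 had an adjusted p of 1. At an unadjusted limma p under 0.05 there were 0 of 35, against 3.98% of all tested probe sets. For 32 of the 35 genes the 95% interval lay within a 2-fold change in either direction, and for 24 of 35 in the overexpressor comparison.

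By class, the knockout medians were -0.13 for the 5 fibrillar collagens, 0.13 for the 8 basement membrane genes and -0.15 for the 3 matricellular genes. The fibrillar median was 0.07 without control 1 and 0.03 without knockout 1, so its sign rested on single arrays, while the basement membrane median stayed between 0.06 and 0.27 without any single array. Col1a2 read 1730, 2354 and 2884 in the knockouts against 3546, 2350 and 2799, a difference of -0.32 (95% interval -0.82 to 0.17). Col3a1 read 3112, 3595 and 4121 against 4452, 3684 and 3715, a difference of -0.13. Knockout 1 was the lowest array for both. Col5a2 was the fibrillar chain above 0, at 0.14, and the collagen VI chains differed by 0.03 each as deposited and by -0.01 each with array medians subtracted.

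Basement membrane genes were higher in 7 of 8 cases, against 63.0% of all tested probe sets, with overlapping groups on the probe set that stood for each gene. Col15a1 read 1922, 2379 and 2479 in the knockouts against 2078, 1878 and 1364, a difference of 0.36 (95% interval -0.17 to 0.88). Col18a1 read 547, 665 and 760 against 603, 578 and 439, a difference of 0.27 (-0.11 to 0.65), and its 4 tested probe sets ran from 0.27 to 0.80. On 2 of the other 3 the groups did not overlap, at 309, 324 and 367 against 280, 239 and 193 and at 213, 302 and 272 against 185, 195 and 59.7, each with a limma adjusted p of 1. Col4a2 read 2194, 2496 and 2704 against 2450, 1998 and 2049, a difference of 0.18. On the probe sets that stood for these 3 genes knockouts 2 and 3 lay above all 3 controls and knockout 1 did not. Lamc1 read 1042, 1124 and 1063 against 1090, 1072 and 870, a difference of 0.09, and Lama2 was the gene below 0, at -0.07.

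Among the 35 tested genes, groups without overlap were found for Mfap2 and Fmod. Mfap2 read 222, 252 and 256 in the knockouts, below the 324, 270 and 290 of the controls, a difference of -0.24 (SE 0.15). Such a lower pattern held for 1 of 35 genes (2.86%) against 1.89% of all tested probe sets. Fmod read 392, 391 and 434, above the 347, 327 and 352 of the controls, a difference of 0.22 (SE 0.10, limma adjusted p = 1), and this higher pattern held for 1 of 35 against 5.62%. Each pattern thus rests on 1 gene.

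Thbs2 read 195, 192 and 277 in the knockouts against 394, 263 and 287, a difference of -0.44 (95% interval -1.07 to 0.18), with knockout 3 above control 2. Cdh11 read 254, 244 and 284 against 350, 293 and 279, and differed by -0.21. Lum read 1819, 1705 and 2689 against 3071, 2106 and 1931, and differed by -0.19. Pdgfra read 828, 842 and 1080 against 1053, 1044 and 881, and differed by -0.12. Knockouts 1 and 2 were the lowest arrays for each of these 4 genes and knockout 3 lay above at least 1 control in each, and above all 3 controls for Pdgfra.

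The difference between both effects, overexpressor effect minus knockout effect, was tested in the same limma fit. It passed an adjusted p of 0.05 for 0 of 35 genes, against 0.161% of all probe sets, and the lowest adjusted p was 0.641. The difference was below 0 for 33 of 35 genes (72.5% of all probe sets), with a median of -0.38 where the median over all probe sets was -0.12. At an unadjusted limma p under 0.05, Lamc1 (-0.61), Col18a1 (-0.70), Dpt (-0.77) and Col4a2 (-0.44) lay below 0, which is 4 of 35 (11.4%) against 4.31%, and Thbs2 (1.12, SE 0.41) above 0, which is 1 of 35 (2.86%) against 0.644%. By class, the median difference was -0.52 for basement membrane, -0.41 for fibrillar collagens and -0.39 for matricellular genes. The classes were not tested against each other.

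Several genes with a large difference between the effects showed a knockout range as wide as that of its controls. Dpt read 1130, 1440 and 2066 in the knockouts against 1721, 1295 and 1485, Col5a2 read 837, 1151 and 1550 against 1369, 830 and 974, and Col4a1 read 2499, 3669 and 3978 against 3378, 3243 and 2463. Knockout 3 was the highest array and overlap was wide in each. Postn read 1316, 1711 and 1764 against 1788, 1461 and 2076, and differed by -0.15. Sparc read 2487, 2861 and 3439 against 3001, 2695 and 2694, and Pcolce 671, 954 and 979 against 976, 787 and 660, differences of 0.06 and 0.10. Both had knockout 3 as the highest array. Lamb2, the laminin beta chain of vessel walls and neuromuscular junctions, read 256, 268 and 392 against 306, 285 and 251 in the knockout line and 233, 211 and 296 against 370, 299 and 253 in the overexpressor line. Its effects were 0.09 and -0.28, with overlap in both lines. Of the dim genes in the knockout line, Nid1 read 101, 154 and 178 against 142, 107 and 109, and Vcan 113, 145 and 163 against 164, 140 and 101. Tnc read 44.6, 49.2 and 61.8 against 60, 69.8 and 33. Each of these overlapped its controls. The remaining dim gene, Nid2, did not, at 127, 194 and 152 in the knockouts against 106, 94.7 and 95.2. Such a higher pattern held for 5.62% of all tested probe sets.

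Arrays within a group differed widely for these genes. Among the overexpressor line's 6 arrays, control 1 was the highest for 28 of the 35 tested genes and overexpressor 1 the lowest for 18, while control 3 was the lowest for 9. In the knockout line, knockout 3 was the highest for 19 genes and control 1 for 14, and knockout 1 was the lowest for 16. The mean log2 difference over all tested probe sets was also lowest on overexpressor 1 (-0.20) and highest on control 1 (0.06) of the overexpressor line. In the knockout line that mean was highest on knockout 3 (0.12) and lowest on control 3 (-0.12). The median SD of a matrix gene across the overexpressor controls was 0.33 on the log2 scale, against 0.15 over all tested probe sets, and 0.17 against 0.15 across the overexpressors. In the knockouts it was 0.29 against 0.16, and in their controls 0.25 against 0.16. Leaving out overexpressor control 1 moved the overexpressor median of the tested genes from -0.41 to -0.23 and the count with an unadjusted limma p under 0.05 from 13 to 4. Leaving out overexpressor control 3 moved them to -0.58 and 20. The same count was 5 without control 2, 5 without overexpressor 1 and 6 without overexpressor 2. The share of all tested probe sets at that p was not taken for the fits without an array. Between 30 and 33 of 35 genes read lower in every one of these fits. For 29 of the 35 genes the overexpressor difference moved by over 1.5 times without 1 of its line's arrays, and the other 6 were Col1a2, Col3a1, Dpt, Lamc1, Pdgfra and Postn. In the knockout line the number of genes that read lower was 9 without control 1, 10 without knockout 1 and 26 without knockout 3, so neither direction held there. The knockout difference moved by over 1.5 times without 1 of its line's arrays for 33 of the 35 genes, the other 2 being Fmod and Mfap2.

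**Figure D4:**
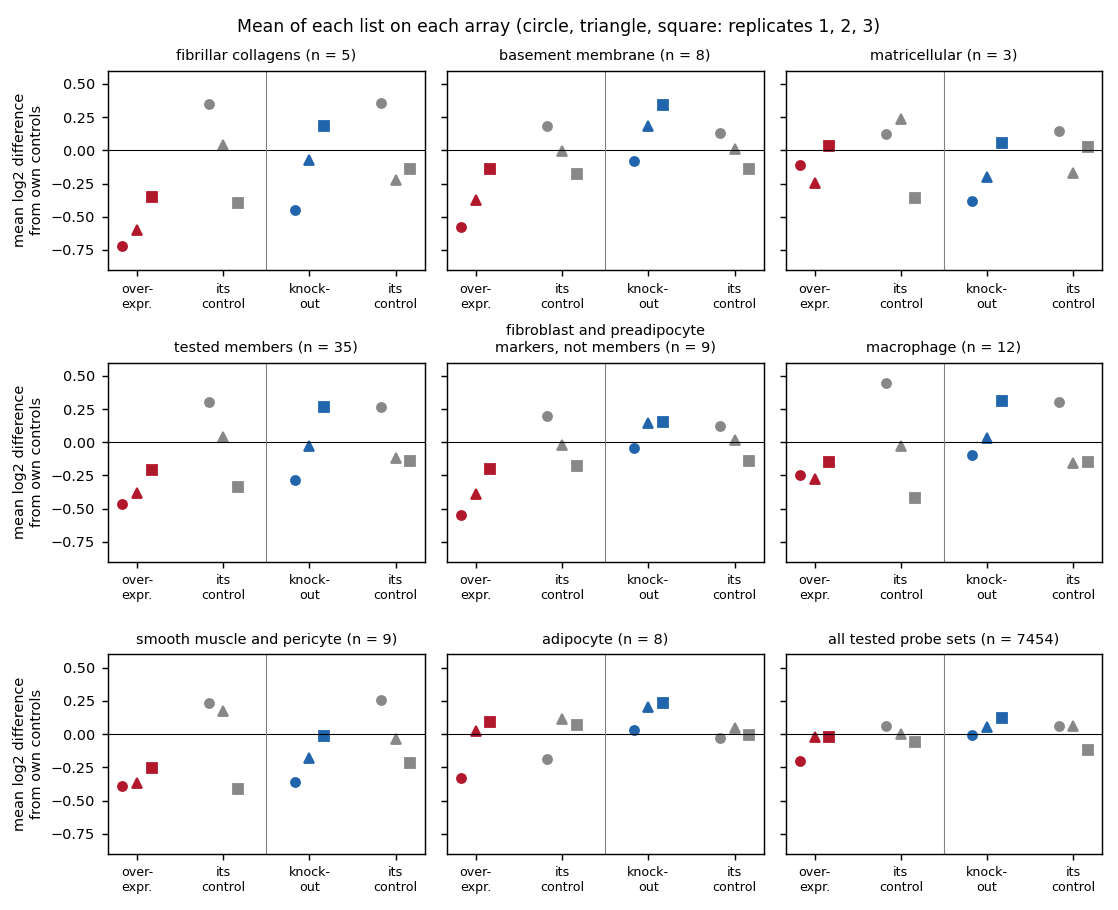
Mean log2 difference from the line's own controls on each array (circle, triangle and square for replicates 1, 2 and 3) for 3 matrix classes, the tested matrix genes together, 4 cell type marker lists and all tested probe sets, with n the genes or probe sets averaged. For the tested matrix genes the overexpressors sit at -0.47, -0.38 and -0.21, and their controls at 0.30, 0.04 and -0.34, so control 3 lies within the overexpressor range.

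Markers of several non-adipocyte cell types had medians below 0 beside the matrix genes in the overexpressors, where 70.3% of all tested probe sets read lower. Of 9 tested fibroblast and progenitor markers outside the matrix list, 9 read lower in the overexpressors, with a median of -0.41, and their summed intensity was 9294 to 11434 in the overexpressors and 11333 to 13977 in the controls. Smooth muscle and pericyte markers read lower in 7 of 9, a share close to that of all probe sets, with a median of -0.37 and sums of 10604 to 11424 against 10329 to 18079, and macrophage markers in 10 of 12, with sums of 8050 to 8871 against 7363 to 14111. All 9 endothelial markers also read lower, with a median of -0.26. So did all 5 tested markers of the mesothelium, the sheet that covers visceral fat, with a median of -0.24 and sums of 2567 to 3120 against 2663 to 5358. The 8 adipocyte markers split into 4 lower and 4 higher, with a median of -0.01 and a range from -0.77 to 0.15. Overexpressor control 1 stood highest of its line for the mesothelial mean (0.54), the macrophage mean (0.45), the smooth muscle mean (0.23) and the fibroblast mean (0.20), as it did for the matrix genes (0.30). In the knockouts, where 63.0% of all tested probe sets read higher and 37.0% lower with a median of 0.04, 8 of 9 fibroblast markers read higher. Their median was 0.08. There 6 of 9 smooth muscle markers read lower, with a median of -0.32, and 4 of 5 mesothelial markers, with a median of -0.13. Macrophage markers had a median of 0.06. Of the 8 adipocyte markers 7 read higher, with a median of 0.08 and a range from -0.01 to 0.50. No marker of these lists was at the smallest value on any array except Epcam, Cd3g, Cd8a and Pgr. None of these marker genes passed the test in either comparison, and the part of the cell types in the matrix values was not tested.

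Other genes of the matrix pathway were followed in lists, to be read against the 70.3% of all tested probe sets that read lower in the overexpressors and their median of -0.07, and none of their members passed limma's adjusted threshold in any comparison. Of 11 tested further collagens, 8 read lower in the overexpressors, with a median of -0.09, both close to those of all probe sets. These 11 include Col13a1 and Col17a1, which passed the filter on the mean over 12 arrays only through the knockout line. In the overexpressor line Col13a1 read 21.9 to 34.1, at or near the smallest value, so its count as higher carries no information. Col17a1 read 68.2 to 150 there, and its difference of -0.41 is that of a dim probe set. Col14a1, a collagen that decorates fibril surfaces, read 324, 357 and 536 against 1015, 534 and 442, a difference of -0.61. Col11a2 differed by -0.38. Of 9 genes of collagen folding and processing, 6 read lower, no larger a share than over all probe sets, with a median of -0.15. The prolyl isomerase Ppib, which helps fold procollagen, read 528, 938 and 1028 against 1363, 1143 and 823, a difference of -0.43. The procollagen C-proteinase Bmp1 read 743, 703 and 725, below the 964, 816 and 779 of its controls, a difference of -0.22. Groups without overlap, lower, were found for 1 of these 9 genes, against 6.48% of all tested probe sets. The third of this list by p, Crtap, which acts in a proline-modifying complex, differed by -0.24.

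Of 13 tested genes of the TGF-beta pathway, the main growth factor route that raises collagen synthesis, 11 read lower, with a median of -0.06. Tgfbi, a secreted matrix protein induced by TGF-beta, read 541, 515 and 502 in the overexpressors and 1080, 700 and 555 in the controls, without overlap, and differed by -0.50. Such a lower pattern held for 1 of the 13 genes, against 6.48% of all tested probe sets. Ccn2, another target, read 194, 178 and 211 against 481, 400 and 178, a difference of -0.66, with control 3 at the level of the lowest overexpressor. Of 12 matrix receptors, 10 read lower, with a median of -0.12, including the collagen receptor Ddr1 (-0.45) and the integrin chains Itgav (-0.36) and Itgb1 (-0.23). Of 7 genes of matrix degradation and its inhibitors, 6 read lower, with a median of -0.21, including the membrane-bound collagenase Mmp14 (-0.45), the collagen-cleaving cathepsin Ctsk (-0.33) and the inhibitor Timp2 (-0.25).

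In the knockouts the corresponding medians were 0.00 for further collagens, 0.08 for folding and processing, 0.05 for the TGF-beta pathway, 0.09 for receptors and -0.08 for degradation. The median over all tested probe sets was 0.04. In the degradation list 6 of 7 read lower in the knockouts, against 37.0% of all tested probe sets, and 2 of the 7 had groups without overlap, lower, against 1.89%. Ctsk read 355, 304 and 360 against 423, 411 and 398, and Mmp14 849, 749 and 893 against 982, 1022 and 1041, which are differences of -0.25 and -0.28. Both lay below their controls on every knockout array.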

How the data were processed

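RNA of 12 mice was measured on 12 Affymetrix arrays, with groups taken from the sample titles because the genotype field gives controls the value of the mutants. The authors deposited linear probe set intensities, and per the labels' protocols the arrays were hybridised at a core facility after extraction with a Qiagen RNeasy kit. How these were summarised, background-treated and scaled is not stated in those sources. Precision is limited by the number of arrays.

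The scale used was log2(intensity + 36.92), where the added constant is the table's 10th percentile, which understates the change of dim probe sets. The 4968 probe sets (40%) with the lowest mean over the 12 arrays were left out, and 7454 were tested. The 4 group means were fitted on all 12 arrays with limma 3.58.1 in R 4.3.3 (lmFit, eBayes with an intensity trend, 8 residual degrees of freedom), with Benjamini-Hochberg adjustment across all tested probe sets. The script was tested on simulated data. An exact permutation test of 3 against 3 cannot go below a two-sided p of 0.1, so none was used.

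In the platform annotation 10833 probe sets name 1 gene, 396 name several and 1193 name none, and RefSeq gene IDs matched 10817 of the 10833. Promoters came from RefSeq on GRCm38.p6. Values per array are given for the 12 genes with the smallest p in each comparison and for up to 2 brighter members per class, and up to 3 genes by p are named per pathway list, which the text gives for the overexpressor comparison. Other values per array, among them those of the dim genes, were added after they were seen. The members, classes and lists were chosen with earlier results of these data known. Alternatives were the constant, the filter, scaling, arrays fitted, array weights, replicate block, probe set rule and leaving out each array. Plots used matplotlib 3.10.9 (Python 3.11.15).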

Additional observations from a re-analysis of the deposited data

Results flagged for a closer look

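Nidogen-2 (Nid2), which joins laminin to collagen IV in basement membranes, read in opposite directions in both lines, with every mutant array beyond every array of its control. The overexpressors read 50.9, 88.1 and 107 against 143, 121 and 133, and the knockouts 127, 194 and 152 against 106, 94.7 and 95.2. Over all tested probe sets, 6.48% lay lower without overlap in the overexpressors and 5.62% higher without overlap in the knockouts. The share that did both was not counted. For Nid2 the difference between both log2 differences was -1.04, and the gene was flagged by that value. This difference was not tested, since the Nid2 probe set, with a mean of 118 over the 12 arrays, lay below the intensity filter, whose dimmest tested probe set had a mean of 157. The identifier carries the suffix s, which the manufacturer gives to probe sets shared by several transcripts.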

How the results depend on the processing

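With 3 arrays a group the median standard error of a gene was 0.22 on the log2 scale, and signal below the filter limits 4 genes. No alternative except array weights called a matrix gene in either comparison, and array weights called 8 in the overexpressors and 0 in the knockouts. The medians of the tested genes, fibrillar collagens, basement membrane and matricellular genes kept within the spread between replicates in every alternative.

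Replicate numbers were added as a block and called 0 genes in either comparison. The overexpressor count with an unadjusted limma p under 0.05, 13 as reported, was 5 with the block, 25 with array weights and 4 to 20 without single arrays. Arrays of the same number did not deviate together, with correlations from -0.09 to 0.02 in the overexpressor line and from -0.35 to -0.04 in the knockout line. Arrays of different numbers gave correlations from -0.20 to 0.20 and from -0.18 to 0.41. With 3 arrays a group these values cannot decide whether the mice were paired, by number or in another way. In the knockouts the count with an unadjusted limma p under 0.05 was 0 as reported. It was 1 with array medians subtracted, with the lowest 60% left out or with a line's own 6 arrays. It was 2 with the mean over probe sets, no filter or quantile normalization, 7 with array weights and 0 to 1 without single arrays. The share of all tested probe sets at that p was taken only for the fits as reported, at 4.76% in the overexpressors and 3.98% in the knockouts. The counts of the other fits, among them those with array weights, therefore have no share to be read against. The number of genes that read lower in the knockouts, 16 as reported, was 25 with array weights and 9 to 26 without single arrays. The causes were not tested.

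The reversals below concern differences that did not pass the test, and their cause was not tested. With array weights the overexpressor difference was 0.15 for Cdh11, 0.049 for Col15a1 and 0.036 for Eln, and the knockout difference was -0.017 for Col5a2, -0.11 for Col6a1, -0.15 for Col6a2, -0.13 for Dpt, -0.081 for Eln, -0.026 for Fbln1, -0.077 for Lamb2, -0.22 for Loxl1 and -0.019 for Sparc. With array medians subtracted the overexpressor difference was 0.052 for Cdh11, and the knockout difference was -0.0067 for Col6a1, -0.011 for Col6a2 and -0.029 for Dpt. With quantile normalization the overexpressor difference was 0.041 for Cdh11, and the knockout difference was -0.018 for Col6a2, -0.078 for Dpt and -0.030 for Fbln1. With the mean over probe sets the overexpressor difference was -0.033 for Fbln1. Without single arrays the overexpressor difference ran from -0.078 to 0.11 for Cdh11, from -0.53 to 0.24 for Eln and from -0.080 to 0.077 for Fbln1. Without single arrays the knockout difference ran from -0.0017 to 0.30 for Bgn, from -0.31 to 0.066 for Col1a1, from -0.20 to 0.15 for Col5a1, from -0.073 to 0.36 for Col5a2, from -0.079 to 0.23 for Col6a1 and from -0.17 to 0.27 for Col6a2. It ran from -0.22 to 0.21 for Dpt, from -0.23 to 0.43 for Eln, from -0.028 to 0.094 for Fbln1, from -0.29 to 0.19 for Fbln2, from -0.21 to 0.084 for Fn1 and from -0.18 to 0.061 for Lama2. Its range was from -0.026 to 0.27 for Lama4, from -0.082 to 0.19 for Lamb2, from -0.0064 to 0.15 for Lamc1, from -0.67 to 0.062 for Lox, from -0.12 to 0.31 for Loxl1 and from -0.39 to 0.0083 for Lum. Also without single arrays, it ran from -0.036 to 0.32 for Mfap5, from -0.60 to 0.18 for Ogn, from -0.032 to 0.27 for Pcolce and from -0.066 to 0.17 for Sparc.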

Other observations

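The probe sets of Col18a1 gave different pictures in the lines. The probe set that ends in 881_g read 55.1, 89 and 115 in the overexpressors and 197, 160 and 115 in their controls, but 932, 1022 and 1175 in the knockouts and 934, 683 and 756 in theirs. The one that stood for the gene read 525 to 997 in the overexpressor line and 439 to 760 in the knockout line. As the lines appear to have been processed separately, these values are set side by side only.

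The directions of the matrix genes in both comparisons fell into 4 combinations. Of 35 tested genes, 17 read lower in the overexpressors and higher in the knockouts, 15 read lower in both, 2 higher in both, and 1, Thbs2, higher in the overexpressors and lower in the knockouts. Of the 13 genes with more than 1 tested probe set, 12 had the same sign on each of them in the overexpressor comparison, Fbln1 being the exception, and 8 did in the knockout comparison.

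Skeletal muscle genes varied between arrays, with the highest mean of the knockout line on knockout 3. The mean of 5 such genes was 1.13 above the control mean on knockout 3, the array that was the highest of its line for 19 of the 35 matrix genes, against -0.12 and -0.40 on the other knockouts. The controls of that line stood at -0.27, 0.50 and -0.24. In the overexpressor line the mean ran from -0.63 on overexpressor 1 to 0.47 on overexpressor 3. The part of the muscle genes in the matrix values was not tested.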
